A study of Mus musculus with 11 samples.

Results

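H3K27me3 is the histone mark that Polycomb repressive complexes place on chromatin, and it is found over the promoters of silent developmental genes and over broad stretches of untranscribed DNA. H3K4me3 marks promoters, and H3K36me3 marks the bodies of transcribed genes, where elongating RNA polymerase brings the enzyme that deposits it. The regions described here are places that carried H3K27me3 in quiescent satellite cells (QSCs), the stem cells of skeletal muscle, from young mice, lay away from H3K4me3, and carried no H3K27me3 peak in QSCs from old mice. They were the peaks of the young H3K27me3 list scored 100 or more by MACS (1e-10 as a p-value against input if, as its lowest value of 50 was read here, the score is the usual MACS logarithm on which 50 stands for 1e-05; no source used here states the scale) and a width of at most 5000 bp that shared no base with an H3K27me3 peak of old QSCs or an H3K4me3 peak of young QSCs. They were thus chosen by the measured peaks and scores of these 3 libraries, and their absence from the old list is not a result. This rule was met by 2654 of 11658 peaks, and these are called missing peaks below. The 598 peaks that met the same score, width and H3K4me3 criteria and overlapped a peak of old QSCs are called kept peaks and served as the comparison. A further 4646 peaks met the rule except for a score under 100 and are called low-scoring missing peaks.

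ChIP-seq had been performed on VCAM+/CD31-/CD45-/Sca1- cells sorted from hindlimb muscles of male C57BL/6 mice, with 8 ChIP libraries and 3 input libraries in the series. Young QSCs (H3K4me3, H3K27me3 and H3K36me3) came from mice of 2 to 3 months, and old QSCs (H3K4me3 and H3K27me3) from mice of 22 to 24 months, all healthy. Activated satellite cells (ASCs, with the same 3 marks) came from young mice of 2 to 3 months. The sample labels describe them as sorted QSCs kept for 3 days in culture on ECM in medium with horse serum, and the paper uses the same name for satellite cells isolated from injured muscle. No group carried a transgene or an altered allele. Sorted cells were stored frozen until enough had accumulated, so a library may pool several sorts, and the number of mice is not given. Each cell state and mark had 1 library and the number of reads is unknown, so no test between ages or states was made. Age, sequencing depth and the quality of the immunoprecipitation cannot be told apart. Intervals are 95% intervals over peaks, they cover counting error only, and neighbouring peaks are not independent. Cell type markers could not be checked in lists of peaks.

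Of the 11658 young H3K27me3 peaks, 5976 had a score of at least 100, 5419 of these were at most 5000 bp wide, 2956 of these had no peak in old QSCs, and 2654 of these were also off H3K4me3. In these lists, young peaks off H3K4me3 were missing in old QSCs more often than those on it. Off H3K4me3, 2654 of 3252 peaks (81.6%) were missing, and on H3K4me3 302 of 2167 (13.9%), compared with 68.2% of all 11658 young peaks at any score and width. The same order held at each level of the young score. Among peaks with a score of 100 to 150, 88.9% (87.2% to 90.5%) were missing off H3K4me3 and 28.4% (24.0% to 33.3%) on it. Among peaks with a score of 500 and above, the shares were 55.0% (48.7% to 61.1%) of 242 peaks off H3K4me3 and 4.93% (3.61% to 6.69%) of 771 on it. These shares come from the lists that chose the regions and are a description. The old H3K27me3 list held 17635 peaks, more than the young one, but they were narrow, with a median width of 838 bp, and covered 16.9 Mb against 21.4 Mb in young QSCs. The part of this difference between the lists in the missing peaks was not tested.

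**Figure D1:**
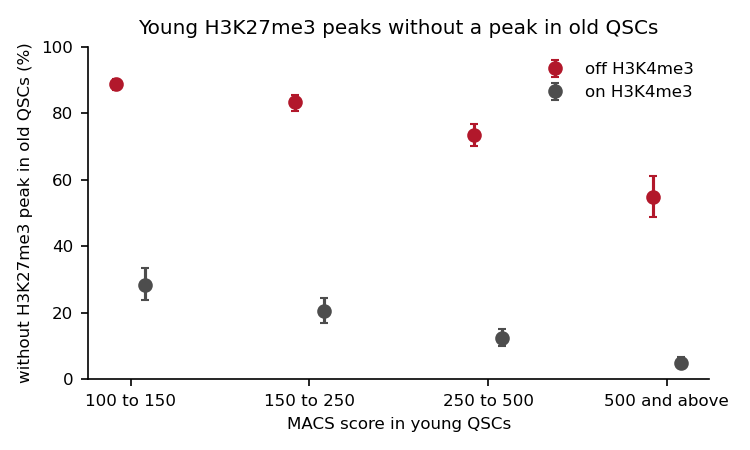
Share of young H3K27me3 peaks (score of at least 100, width of at most 5000 bp) without a peak in old QSCs, in percent, by MACS score in young QSCs, for peaks off and on H3K4me3 of young QSCs. Bars are Wilson 95% intervals. The share fell with the score in both groups, and the peaks off H3K4me3 lay above those on it at each score, from 88.9% down to 55.0% against 28.4% down to 4.93%.

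The missing peaks were narrower and had lower scores than kept peaks, although the rule placed them among the 51.3% of young peaks that reached a score of 100. Their median width was 1587 bp (1560 to 1623 bp), against 1228 bp over the whole young list, with quartiles at 1227 and 2153 bp, and together they covered 4.82 Mb. Most of them, 1609 peaks or 60.6%, were between 1 and 2 kb wide, 242 were narrower and 255 were wider than 3 kb. Kept peaks were wider, with a median of 2014 bp (1902 to 2161 bp), and 21.9% of them exceeded 3 kb, compared with 9.61% of the missing peaks. The median score was 157 for missing peaks and 234 for kept peaks. The rule used width and score, and a wider peak has more bases that an old peak can share. These contrasts are therefore a description, and the part of width in the overlap with old peaks was not tested. The lowest score inside the rule was 100.01, at a peak of 889 bp on chromosome 11, and the highest outside was 99.98, at a peak of 979 bp on chromosome 17. The widest peak inside measured 4969 bp, and the narrowest of the 82 peaks that met the rule except for width measured 5034 bp.

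**Figure D2:**
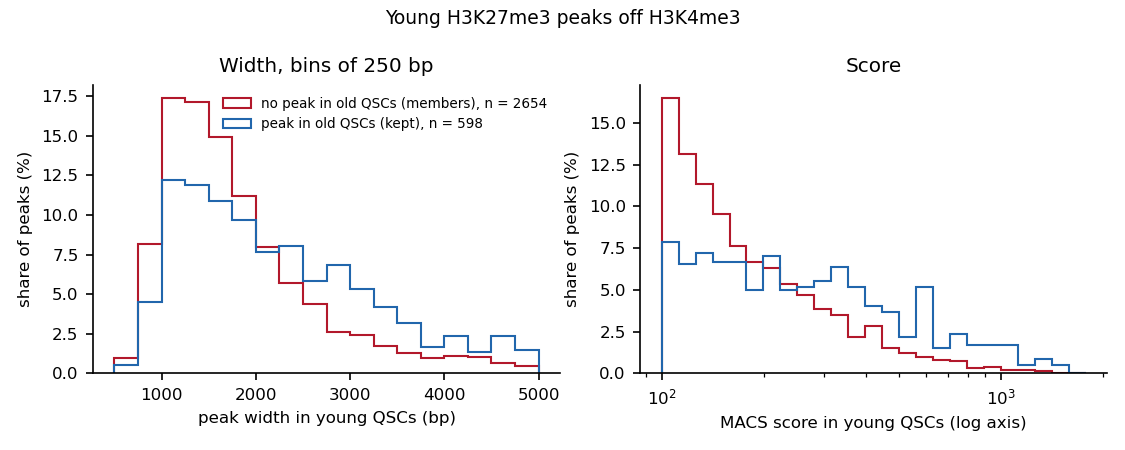
Distribution of width (bp, bins of 250 bp) and of MACS score (log axis) in young QSCs for the 2654 missing peaks (red) and the 598 kept peaks (blue), as percent of each group. The missing peaks gather between 1 and 2 kb and near the score minimum of 100, and the kept peaks reach further to the right on both axes.

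The regions were off H3K4me3 in the other cell states too, although many were not far from it. An H3K4me3 peak of old QSCs overlapped 37 missing peaks, 1.39% (1.01% to 1.92%), and an H3K4me3 peak of ASCs overlapped 88, 3.32% (2.70% to 4.07%). For all young H3K27me3 peaks, which include those on young H3K4me3 that the rule removed, these shares were 28.2% and 27.9%. For low-scoring missing peaks they were lower, 0.882% (0.651% to 1.19%) and 1.76% (1.42% to 2.19%). Kept peaks, which obey the same rule on young H3K4me3, overlapped H3K4me3 of old QSCs in 25.4% (22.1% to 29.1%) and of ASCs in 21.1% (17.99% to 24.5%). The difference from kept peaks was -24.0 percentage points (-27.7 to -20.7) for old QSCs and -17.8 (-21.3 to -14.6) for ASCs. The nearest H3K4me3 peak of young QSCs lay at a median distance of 8.98 kb, with 342 missing peaks (12.9%) within 1 kb and 1378 (51.9%) within 10 kb. The closest to a missing peak lay 4 bp away, at a peak of 1192 bp on chromosome 6. For low-scoring missing peaks the median distance was 11.8 kb, with 8.18% within 1 kb and 45.6% within 10 kb. Since the positions of genes were not used, off promoters means here away from an H3K4me3 peak.

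Missing peaks seldom stood alone. Another H3K27me3 peak of young QSCs lay within 10 kb of 2415 of them, a share of 91.0% (89.8% to 92.0%), compared with 73% of all young H3K27me3 peaks and 84.8% (81.7% to 87.4%) of kept peaks. The difference from kept peaks was 6.21 percentage points (3.32 to 9.48). Low-scoring missing peaks had such a neighbour in 69.7%, and peaks missing in old QSCs but on H3K4me3 in 68.2%. When peaks less than 1 kb apart were merged before the rule, 76.1% of 1254 missing peaks had one. Within 1 kb the shares were 65.4% for missing and 67.1% for kept peaks, a difference of -1.68 points whose interval (-5.77 to 2.57) included zero. The median gap to the nearest other peak was 468 bp, against 387 bp for kept peaks and 1200 bp over the whole list. Of the 2415 nearest neighbours, 902 were themselves missing peaks, 748 met the rule except for a score under 100, and 45 met it except for a width over 5000 bp. In all, 72.7% of the neighbours of missing peaks had no peak in old QSCs, near the 68.2% of all young peaks, and 55.0% of the neighbours of kept peaks. Absence from the old list chose the missing peaks, so these shares are a description.

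When missing peaks were chained with gaps of at most 50 kb, they formed 1073 groups, of which 607 held a single peak. At the other end, 37 runs of 10 or more peaks on 15 chromosomes held 646 missing peaks, 24.3% of all. These runs were between 47.4 and 462 kb long, with a median length of 137 kb. H3K27me3 of young QSCs covered between 26.6% and 86.6% of their length. Old QSCs were not devoid of the mark there, since 35 of the 37 runs held at least 1 old H3K27me3 peak, the median number was 4, and 31 held a young peak, within the limits of score and width, that overlapped an old one. The old peaks covered at most 23.7% of a run and 2.09% in the median, which is a description, since the runs were built from peaks without an old peak.

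The run with the most missing peaks, 45, lay on chromosome 2 from 165910964 to 166373232 (mm9). It held 100 H3K27me3 peaks of young QSCs that covered 71.9% of its 462 kb, and 8 of these met the rule except for a width over 5000 bp. In old QSCs 35 peaks covered 6.48%, while in ASCs 148 peaks covered 58.7% and touched 39 of the 45 missing peaks.

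A second run, on chromosome 9 from 60786053 to 61215976, held 43 missing peaks. The 87 young H3K27me3 peaks covered 36.9% of its length, and 7 old peaks covered 1.25%. In ASCs 126 peaks covered 42.8%, more than in young QSCs, and 39 of the 43 missing peaks were among the places covered. The ASC list as a whole also covered more, 48.9 Mb against 21.4 Mb in young QSCs. No H3K36me3 peak of QSCs or ASCs lay in this run.

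The next place was shared by 3 runs of 28 missing peaks, which differed in ASCs. In the longest, on chromosome 2 from 101817684 to 102117560, 54 young H3K27me3 peaks covered 36.03%, 5 old peaks covered 1.56%, and ASC peaks covered 12.5% and touched 10 of the 28. On chromosome 12, from 105678686 to 105877687, ASC peaks covered 42.5% and touched 27 of 28. On chromosome 5, from 112191087 to 112402864, they covered 26.5% and touched 18 of 28.

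**Figure D3:**
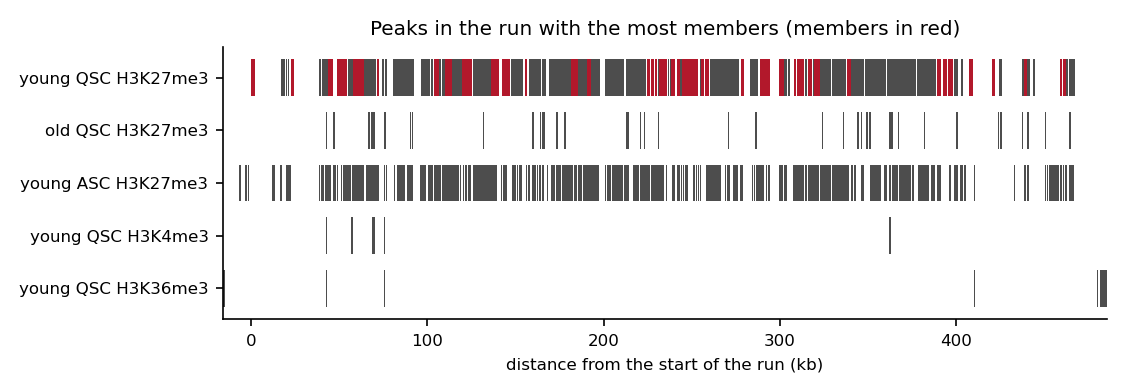
Peaks along the run with 45 missing peaks on chromosome 2, as distance from its start in kb, with 20 kb on either side. Each row is a peak list, bars are peaks to scale, and missing peaks are red. H3K27me3 of young QSCs and of ASCs fills much of the run, whereas the 35 H3K27me3 peaks of old QSCs are short and scattered.

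Peaks of old QSCs lay close to many missing peaks without touching them. The nearest old H3K27me3 peak lay at a median distance of 7.08 kb, and 390 missing peaks (14.7%) had one within 1 kb, 1126 (42.4%) within 5 kb and 1487 (56.0%) within 10 kb. The closest was 3 bp away, at a peak of 1929 bp on chromosome 15, and the smallest overlap that made a peak count as kept was 3 bp, on chromosome 12. Within 50 kb 2236 (84.3%) had an old H3K27me3 peak. Low-scoring missing peaks had one within 1 kb in 9.62% and within 10 kb in 44.0%, at a median distance of 14.0 kb. For peaks missing in old QSCs but on H3K4me3 these values were 15.6%, 44.7% and 13.5 kb. The old list chose all of these peaks, so the distances are a description.

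In ASCs most of the regions carried H3K27me3. The ASC list was the largest for this mark, with 38307 peaks over 48.9 Mb. The old list held 17635 peaks over 16.9 Mb and the young list 11658 over 21.4 Mb. The part of list size and of depth in the shares below was not tested. An ASC peak overlapped 2103 of the 2654 missing peaks, a share of 79.2% (77.7% to 80.7%), compared with 74.3% of all young H3K27me3 peaks at any score and width. Among kept peaks the share was 94.98% (92.9% to 96.5%), a difference of -15.7 percentage points (-17.9 to -13.2). This difference was -28.1 points with a score minimum of 50, -9.68 with a minimum of 200 and -24.2 with the ASC list limited to scores of at least 100. Kept peaks had been chosen by a peak in another H3K27me3 library, that of old QSCs. The part of this choice in the difference was not tested. Among low-scoring missing peaks the share was 53.6% (52.2% to 55.0%). Among the 302 peaks that were missing in old QSCs but lay on H3K4me3 it was 84.1% (79.6% to 87.8%). The difference of missing peaks from these was -4.87 points (-8.88 to -0.0777). Of the summed length of the missing peaks 65.8% was covered by ASC peaks, against 84.4% for kept peaks, and the median missing peak was covered over 83.3% of its width. Coverage was complete at 553 missing peaks (20.8%), between 50% and complete at 1314 (49.5%), under 50% at 236 (8.89%) and absent at 551 (20.8%). Kept peaks were covered completely in 39.3% and not at all in 5.02%.

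The shares rose with the score in young QSCs up to the range of 250 to 500 and were similar above it. Missing peaks lay below kept peaks at each level of the score. For scores of 100 to 150 the share with an ASC peak was 72.5% (69.9% to 74.9%) of missing and 89.6% (83.8% to 93.5%) of kept peaks. For scores of 250 to 500 it was 90.7% (87.9% to 93.0%) and 99.4% (96.9% to 99.9%), and for scores of 500 and above 91.0% (84.9% to 94.8%) of 133 missing and 98.2% (93.6% to 99.5%) of 109 kept peaks. The difference was negative in each of the 4 score ranges, from -17.2 points (-21.8 to -10.9) in the lowest to -7.19 (-13.4 to -1.22) in the highest. The centre of the peak was inside an ASC peak for 71.4% of missing and 87.6% of kept peaks. Kept peaks were also the wider, and a peak in old QSCs had chosen them. The parts of width and of this choice in these differences were not tested. At 2 kb from the centre these shares were 45.6% and 53.9%, and at 20 kb 24.0% and 24.5%.

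**Figure D4:**
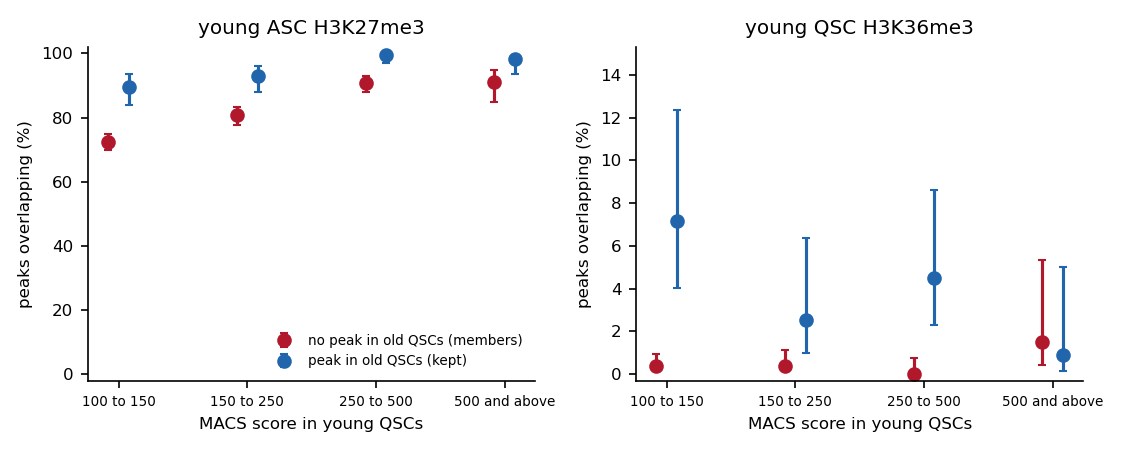
Share of missing (red) and kept (blue) peaks that overlapped H3K27me3 of ASCs and H3K36me3 of young QSCs, in percent, by MACS score in young QSCs, with Wilson 95% intervals. The share with H3K27me3 in ASCs was lower for missing peaks at each score, and H3K36me3 was at most 1.504% for missing peaks throughout.

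The best ASC score and the widest ASC peak at these places were mostly above the medians of the ASC list, though below those at kept peaks. The best ASC score at a missing peak had a median of 321, compared with 1174 at kept peaks and 97.1 over all 38307 ASC peaks. The widest ASC peak had a median of 1877 bp, compared with 2839 bp at kept peaks and 866 bp over the list. The list medians are over single peaks, and a wide peak is more likely to overlap a region, so these measures are unlike. Kept peaks had been chosen by an old H3K27me3 peak, and the part of this choice in their higher values was not tested. Where 1 missing peak met 1 ASC peak, at 1490 places, the median width was 1540 bp in young QSCs and 1671 bp in ASCs, and the ASC peak was the wider in 52.1% (49.6% to 54.7%). At the 403 such places among kept peaks the ASC peak was wider in 71.0% (66.4% to 75.2%). An ASC peak joined more than 1 missing peak in 155 cases, with at most 3, and 386 missing peaks were met by several ASC peaks.

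The share with H3K27me3 in ASCs differed with the surroundings of a missing peak. Among the 239 missing peaks without another young H3K27me3 peak within 10 kb it was 65.3% (59.0% to 71.0%), compared with 80.6% of the other 2415, a difference of -15.3 points (-21.8 to -9.37), and the lone peaks also had a lower median score (127 against 163). It was 92.3% (89.2% to 94.6%) for the 390 missing peaks within 1 kb of an old H3K27me3 peak, 84.8% (82.5% to 86.8%) between 1 and 10 kb and 69.7% (67.0% to 72.2%) for the 1167 that were further away. The median score of these groups, 173, 166 and 146, moved in the same order, and its part in the difference was not tested. Among the 37 long runs, all missing peaks had an ASC peak in 6 runs, and fewer than 50% of them had one in 4 runs.

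**Figure D5:**
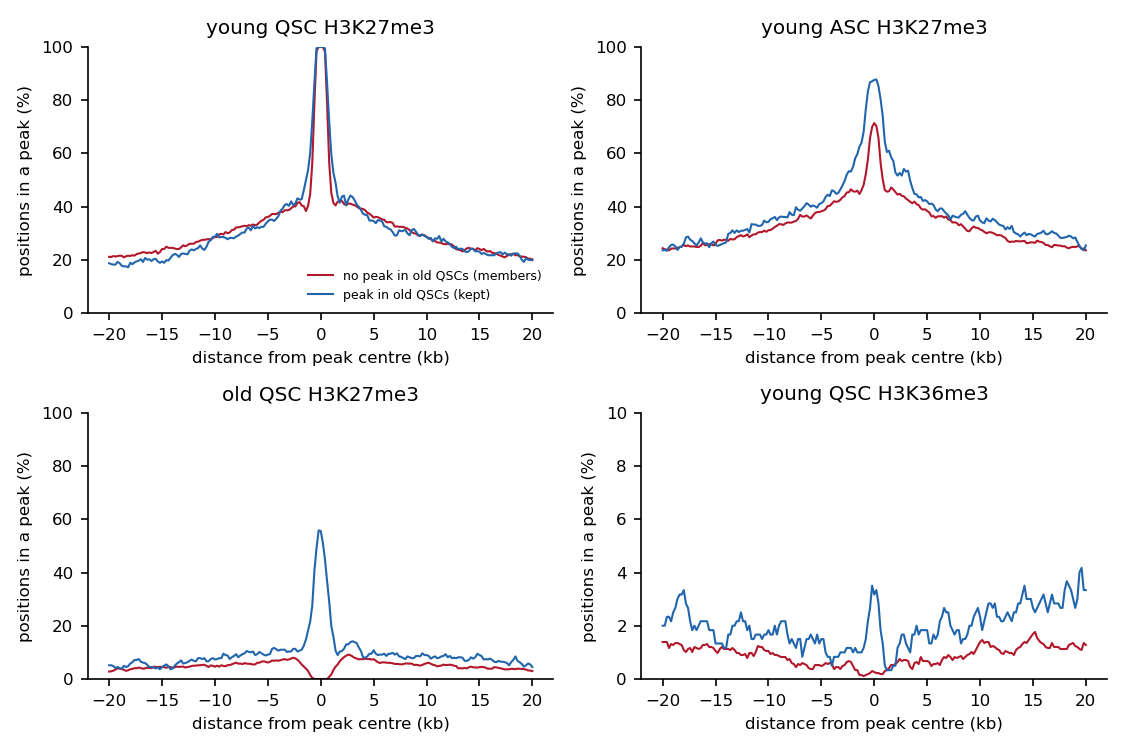
Share of positions inside a peak of each list, in percent, against the distance from the centre of missing (red) and kept (blue) peaks in kb. The rule fixes the value at the centre for young QSCs (100%) and, for missing peaks, for old QSCs (0%). H3K27me3 of ASCs reached 71.4% at the centre of missing and 87.6% at that of kept peaks, and the H3K36me3 panel has its own axis up to 10%.

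The 551 missing peaks without H3K27me3 in ASCs were narrower (median 1467 against 1636 bp) and had lower scores in young QSCs (median 135 against 167) than the others. Of these 551, 411 (74.6%) had an ASC H3K27me3 peak within 10 kb. They overlapped H3K4me3 of ASCs in 32 cases, 5.81% (4.14% to 8.08%), compared with 2.66% (2.06% to 3.44%) of the missing peaks that had H3K27me3 in ASCs, a difference of 3.14 points (1.31 to 5.50). H3K36me3 of ASCs overlapped 14 of them, 2.54% (1.52% to 4.22%), compared with 0.476% (0.258% to 0.873%), a difference of 2.07 points (0.969 to 3.76). At 4 places both of these marks, which belong to promoters and to transcribed gene bodies, were present in ASCs and H3K27me3 was not.

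H3K36me3 was rare at the missing peaks in young QSCs. It overlapped 10 of 2654, a share of 0.377% (0.205% to 0.692%), compared with 4.71% of all young H3K27me3 peaks, 4.01% (2.71% to 5.90%) of kept peaks and 15.2% (11.6% to 19.7%) of the 302 peaks that were missing in old QSCs but lay on H3K4me3. Low-scoring missing peaks had a like share, 18 of 4646 or 0.387% (0.245% to 0.612%). The difference from kept peaks was -3.64 percentage points (-5.53 to -2.30). It depended on the settings, with -1.26 points when H3K36me3 peaks needed a score of at least 100, -1.35 when peaks with an old peak within 5 kb were counted with the kept ones, -2.14 when H3K4me3 of all 3 cell states was avoided and -5.87 when old peaks with a score under 100 were disregarded. By score it was 5 of 1238 missing peaks between 100 and 150, 3 of 787 between 150 and 250 and 0 of 496 between 250 and 500, which allows a share of up to 0.605%. Above 500 it was 2 of 133 missing and 1 of 109 kept peaks, and there the difference of 0.586 points had an interval (-3.65 to 4.47) that included zero. The nearest H3K36me3 peak lay at a median distance of 82.9 kb from a missing peak and 54.9 kb from a kept peak, and 10.5% (9.37% to 11.7%) of missing and 17.9% (15.0% to 21.2%) of kept peaks had one within 10 kb. For low-scoring missing peaks these values were 71.4 kb and 9.54% (8.72% to 10.4%), and for all young H3K27me3 peaks 63.1 kb and 15.7%. Of the 37 long runs 25 held no H3K36me3 peak of young QSCs. The same was true of 200 of 230 runs of 3 to 9 missing peaks, 189 of 199 of 2 and 602 of 607 single peaks. Shorter groups thus lacked it more often, and the part of length in this was not tested. In ASCs, whose H3K36me3 list is the larger with 42880 peaks against 20399, 24 missing peaks overlapped it, 0.904% (0.608% to 1.34%), compared with 1.51% (0.794% to 2.84%) of kept peaks and 1.6% of all young H3K27me3 peaks. The difference of -0.601 points had an interval (-1.96 to 0.234) that included zero.

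The 10 missing peaks with H3K36me3 in young QSCs were spread over 7 chromosomes, and the H3K36me3 covered between 22.1% and 87.6% of their width. Of these, 6 overlapped H3K27me3 and 3 overlapped H3K36me3 in ASCs. The strongest H3K27me3 peak among them, on chromosome 12 from 101193389 to 101195219, had a score of 751 in young QSCs, no H3K27me3 in ASCs, and H3K36me3 over 50.5% of its width in young QSCs and over 553 bp in ASCs. The widest, of 3908 bp on chromosome 10 from 79411003 to 79414910, had a score of 569 and H3K27me3 in ASCs over 59.2% of its width.

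The 5 missing peaks with the highest scores in young QSCs differed in ASCs as well. The highest score, 1623, belonged to a peak of 4103 bp on chromosome 9, from 57956430 to 57960532, in a run of 20 missing peaks that all had an ASC peak. The nearest old peak was 0.521 kb away, and in ASCs 2 peaks with a best score of 74.5 covered 36.2% of its width. The second, with a score of 1427 on chromosome 14 from 25947188 to 25951203, was covered over 14.7% by an ASC peak with a score of 69.6. The remaining 3 were strong in ASCs too. A peak on chromosome 9 from 61102520 to 61107196, within the run of 43, was covered over 98.7% at an ASC score of 2035. On chromosome 14 from 63880213 to 63885180 coverage was complete at a score of 2698, and on chromosome 19 from 25688512 to 25692310 it was 76.4% at a score of 913. High-scoring H3K27me3 in young QSCs was thus found both at places that were strong in ASCs and at places near the lowest score called there.

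Among the 5 widest missing peaks, which include the complete one on chromosome 14, all but 1 were covered by ASC H3K27me3 over at least 69.2% of their width. The exception, 4868 bp wide with a score of 627 on chromosome 12 from 103563665 to 103568532, had no H3K27me3 in ASCs, where H3K36me3 covered 4290 bp and H3K4me3 covered 1212 bp of it. It had no H3K36me3 in young QSCs, where the nearest H3K36me3 peak was 42.5 kb away. On chromosome 13, from 78320251 to 78325083, a peak with a score of 967 met 2 ASC peaks with a best score of 3100, and the nearest old peak was 0.847 kb away.

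The missing peaks were found on chromosome X and all autosomes, and their share of the young H3K27me3 peaks of a chromosome was lowest on chromosome 15 with 15.0% (11.9% to 18.8%) of 412 peaks and highest on chromosome 9 with 28.8% (25.8% to 32.1%) of 787, followed by chromosomes 6 and 12 with 27.6% each. On chromosome X it was 25.3% (17.6% to 34.8%) of 95 peaks, within the range of the autosomes. Chromosome 2 held the largest number, 297, but also the most young H3K27me3 peaks, 1267, and its share was 23.4%.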

How the data were processed

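ChIP-seq of H3K4me3, H3K27me3 and H3K36me3 in young QSCs and ASCs and of H3K4me3 and H3K27me3 in old QSCs gave 8 deposited lists of peaks. Per the labels' processing notes, reads were aligned with Bowtie to mm9, and the peak names are those of MACS. Versions, filters and read numbers are not given in the sources used here. The score deposited with each peak was read as the MACS score, the negative logarithm of the p-value against input on a scale where 100 is 1e-10, and depends on depth. Samples were assigned to groups from their titles. The regions and comparisons were chosen with earlier results of these data known.

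Overlaps of at least 1 bp, distances (1 bp for adjacent peaks), covered lengths and runs (gaps of at most 50 kb) were computed with pandas 2.3.3 and numpy 2.4.6 under Python 3.11.15. Overlaps, covered lengths, gaps between neighbouring peaks and the chaining of runs were tested on simulated data. Counts of young H3K27me3 peaks overlapping ASC H3K27me3 and young H3K36me3 were checked against bedtools 2.31.1. Distances to peaks of other lists were not part of these checks. Shares have Wilson intervals (scipy 1.17.1), differences Newcombe intervals and medians binomial intervals, all at 95%, and a count of 0 allows 3 counts. Figures used matplotlib 3.10.9. Regions named were the 5 highest scores, the 5 widest, the 3 runs with the most missing peaks and those beside each threshold. Runs tied with the third, regions with H3K36me3 and the chromosomes with the highest and lowest share were added after their values were seen. The gene table at hand is in GRCm38, so no gene was located and no coordinate converted, and no sequence of mm9 was used here. Input libraries were not analysed here.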

Additional observations from a re-analysis of the deposited data

How the results depend on the processing

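Of 61 alternative values for 8 results under 8 settings, 30 stayed within the interval of the reported value (within 1.5 times for the number of peaks), 31 moved and 0 changed direction. For the share of length covered, the interval treated that share as a count of peaks. It is not an interval of covered length, so for this result the division is only a rough guide. With a score minimum of 50 there were 7300 missing peaks with a median width of 1051 bp, 62.9% overlapped ASC H3K27me3, 56.4% of their length was covered, 77.5% had a neighbour within 10 kb, and the difference in ASC overlap from kept peaks was -28.1 points. With a minimum of 200 these values were 933, 2302 bp, 88.6%, 71.4%, 96.5% and -9.68 points. With peaks less than 1 kb apart merged they were 1254, 1860 bp, 73.2%, 58.7%, 76.1% and -19.99 points. With no old peak allowed within 5 kb, 1528 peaks met the rule, of which 72.2% overlapped ASC H3K27me3 over 57.9% of the length and 86.3% had a neighbour, with differences of -18.8 points for ASC H3K27me3 and -1.35 for H3K36me3 from a comparison group of 1724 peaks that here joined the 598 kept peaks with 1126 that had an old peak within 5 kb but did not overlap it. With ASC and H3K36me3 lists limited to scores of at least 100, ASC overlap was 66.4%, length covered 58.0% and H3K36me3 overlap 0.0754%, with differences of -24.2 and -1.26 points. The H3K36me3 difference was -5.87 points when only old peaks with a score of at least 100 counted (315 kept peaks) and -2.14 when H3K4me3 of all 3 cell states marked promoters. Requiring that 50% of the shorter peak be shared moved no value beyond its interval. Raising the score minimum raised the ASC overlap and the median width. The number of missing peaks depended on the thresholds, from 933 to 7300. No paired analysis was possible because each cell state and mark had 1 library, and for the same reason no library could be left out. Read depth is unknown, and so is the limit of detection in the old list.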
